A study of Mus musculus with 34 samples.

Results

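Expression of 6 interferon-induced genes, Ifit1, Ifit3, Ifitm3, Irf7, Isg15 and Usp18, was followed in young mice that had been injected with kainate, nicotine or saline 1 week earlier, in their hippocampus and neocortex. The 6 genes were chosen by name with earlier results of these data known, so counts among them are descriptions and not independent support. They are covered by 7 probe sets that the platform annotation assigns to only 1 of these symbols, of 12422 probe sets and 8251 named genes in all. Irf7 has a brighter and a dimmer probe set, and its main value is that of the brighter. The study injected male mice intraperitoneally on postnatal day 23, 3 times at intervals of 2 h, and collected the mice that had survived to postnatal day 30. The kainate mice received 15 mg/kg of kainate, a glutamate receptor agonist used to provoke seizures. Other mice received 10 mg/kg of nicotine, which acts on nicotinic acetylcholine receptors, and control mice received saline alone. One region of 1 mouse was measured on each of 34 Affymetrix arrays, and each region had 5 kainate, 6 nicotine and 6 saline arrays. Whether the 2 regions came from the same mice is not in the labels. All groups went through the same injections and differed in the agent, no genotype or transgene is given, and because only survivors were collected the kainate group describes mice that lived through the injections.

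Type I interferons bind a receptor on the cell surface, and kinases of the Janus family then pass the signal on inside the cell. A complex that includes the transcription factor Irf9 then binds a short element in the promoters of interferon-induced genes. In the brain, microglia, astrocytes, endothelial cells and neurons can all express such genes, and they are best known from viral infection, ageing and injury.

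The probe sets report genes on 4 chromosomes, with positions from RefSeq on GRCm38.p6. Ifit1 and Ifit3, which encode partner proteins that bind foreign RNA, lie near each other at chr19:34640889-34650009 and chr19:34583119-34588982. The mouse genome holds a close copy of Ifit3, named Ifit3b, and whether the probe set separates them was not tested. Ifitm3, which encodes a membrane protein that blocks the entry of viruses, lies at chr7:141009590-141010744. Irf7, a transcription factor that drives interferon genes, lies at chr7:141263183-141266499. Isg15, a ubiquitin-like protein that is joined to other proteins, lies at chr4:156199424-156200818. Usp18, a protease that removes Isg15 and dampens signalling at the interferon receptor, lies at chr6:121245906-121270917.

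The element bound by the complex that includes Irf9 is shown because it is what these genes are known to share. Its core was searched as GAAA, any 2 bases and GAAA again, on both strands of the RefSeq promoter windows, which run from 250 bases before to 50 bases after each transcript start on GRCm38.p6. The core was present in 4 of the 5 members with a window, where 3.99% of all 27025 genes with a window had it. By window, it was present in 3.44% of all 32851. Usp18 was not in the window table. Capitals mark the matches, which begin with TTTC where the core lies on the other strand, and overlapping matches run together.
Ifit1 (chr19:34640765-34640884, plus strand): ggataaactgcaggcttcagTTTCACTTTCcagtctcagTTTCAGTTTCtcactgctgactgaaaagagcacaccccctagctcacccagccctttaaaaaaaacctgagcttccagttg
Isg15 (chr4:156200819-156200938, minus strand): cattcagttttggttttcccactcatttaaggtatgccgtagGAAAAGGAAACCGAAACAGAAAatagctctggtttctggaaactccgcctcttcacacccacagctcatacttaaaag
Ifit3 (chr19:34583363-34583392, plus strand): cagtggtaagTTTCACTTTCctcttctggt
Ifitm3 (chr7:141010716-141010742, minus strand): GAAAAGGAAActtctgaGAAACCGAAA

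Ifit1 and Ifit3 each had 2 matches before the start, and Isg15 had 3 overlapping ones. The start used for Ifit3 lies inside the annotated gene, so only 30 bases around its first match are printed. The 2 matches of Ifitm3 lie just after the start. Irf7 had no match in its window, which says only that these letters are not in that stretch. A match in letters is a description and not a binding site.

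Fold changes below are limma's on log2(signal + 16), with the standard error (SE) and p-values adjusted by Benjamini-Hochberg over all 8695 probe sets tested in a region. Called means an adjusted p under 0.05. The filter kept probe sets at or above the 30th percentile, which lay at a signal of 130.5 in the hippocampus and 127.7 in the neocortex. Ifit3, Ifitm3, Irf7 and Isg15 passed it in both regions. Ifit1 and Usp18 did not pass in either, so their values come from a fit of all 12422 probe sets. Ifit3 passed in the hippocampus although only 2 of its 6 saline arrays and 1 of its 6 nicotine arrays reached the filter level, against 5 of 5 kainate arrays. Signals of different probe sets are not compared, since each has its own brightness.

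Kainate was followed by higher signals of Ifit3, Ifitm3 and Isg15 in the hippocampus. Against saline, 3 of the 4 members that passed the filter were called, all higher, where 2.79% of all probe sets tested were called and 1.84% were called higher. Ifit3 passed the filter only through its kainate arrays, so this count partly reflects the filter. All 3 called members also had every kainate array above every saline array, as had 2.31% of all probe sets tested. Without a filter, 2 of the 6 members were called, Ifit3 and Ifitm3, where 1.91% of all probe sets were called and 1.31% called higher. Of the 6, 4 had every kainate array above every saline array, Ifit1 being the other one, where 1.91% of all probe sets had. The kainate hippocampus had the highest mean signal of the 6 groups for each of the 6 members.

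Ifit3 had signals of 539.2, 1214.4, 694.1, 598.9 and 819.7 in the kainate hippocampi. The nicotine hippocampi ran from 39.4 to 130.7 with a median of 97.35, and the saline hippocampi from 34.4 to 282.8 with a median of 73.85. Every kainate array lay above every nicotine and saline array. The means were 773 ± 268 with kainate (SD, n = 5), 93.9 ± 32.7 with nicotine (SD, n = 6) and 116 ± 97.5 with saline (SD, n = 6). The log2 fold change against saline was 2.82 ± 0.41 SE, or 7.05-fold, with a limma adjusted p of 0.000161. Both means without kainate lay under the filter level, so the size of this fold depends on the pseudocount. Because whole tissue was measured, more cells that hold an RNA and more RNA in each cell cannot be told apart here or below.

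Ifitm3 gave 2523.5, 3411.5, 1922.3, 2088.1 and 3017.1 in the kainate hippocampi. They ran from 796.0 to 1046.0 with nicotine (median 978.9) and from 546.1 to 1303.8 with saline (median 906.65). Again every kainate array was higher than all arrays of both other groups. The log2 fold change against saline was 1.51 ± 0.18 SE, or 2.84-fold, with a limma adjusted p of 1.36e-05. In every array of every group Ifitm3 lay above the filter level, so this fold does not rest on a dim baseline.

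Ifit1 gave 186.9, 288.8, 170.5, 156.7 and 235.2 in the kainate hippocampi. With nicotine it ran from 8.9 to 89.9 with a median of 41.45, and with saline from 11.1 to 148.5 with a median of 95.5. All 5 kainate arrays lay above all others, but the gap to the highest saline array was small. None of the nicotine arrays and 2 of the saline arrays reached the filter level. The unfiltered log2 fold change against saline was 1.25 ± 0.45 SE, with a limma adjusted p of 0.211, and an exact two-sided permutation test of this gene alone gave p = 0.00433, the smallest that 5 against 6 arrays allow. Over all probe sets Ifit1 was therefore not called against saline.

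Isg15 gave 892.6, 885.7, 347.1, 774.1 and 984.5 in the kainate hippocampi. The range was 46.3 to 379.5 with nicotine (median 233.45) and 61.8 to 331.1 with saline (median 230.15). No kainate array reached down to the saline range, and the lowest, replicate 3 at 347.1, lay below the highest nicotine array. The log2 fold change against saline was 1.89 ± 0.50 SE, or 3.70-fold, with a limma adjusted p of 0.0430. That call sat close to the threshold. It was lost with a pseudocount of 1 (adjusted p = 0.0581), without a filter (0.0585) and with quantile normalization (0.0872). It was also lost when any of 8 arrays was left out, namely kainate replicate 1, 2, 4 or 5, nicotine replicate 5, or saline replicate 2, 3 or 4, with limma adjusted p-values up to 0.112 and log2 fold changes from 1.61 to 2.15 over all left-out arrays.

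Usp18 gave 211.9, 341.2, 84.9, 367.5 and 299.9 in the kainate hippocampi. It ran from 23.4 to 103.7 with nicotine (median 49.15) and from 21.2 to 128.4 with saline (median 102.95). Kainate replicate 3 fell inside the range of both other groups and the other 4 lay above them. The unfiltered log2 fold change against saline was 1.55 ± 0.45 SE, with a limma adjusted p of 0.0946. It was called without kainate replicate 3 (1.88, limma adjusted p = 0.0269) and with array weights (1.65, 0.0497). No nicotine or saline array of Usp18 reached the filter level, so its baseline is dim throughout.

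The probe sets of Irf7 did not move together. Their Pearson correlation was 0.0095 over the 34 arrays and -0.275 after the group means were subtracted. They also differed in how they set nicotine apart. The brighter had signals of 403.7, 329.4, 591.1, 574.4 and 477.0 in the kainate hippocampi. It ran from 275.9 to 506.1 with nicotine (median 412.8) and from 161.8 to 442.5 with saline (median 264.65), so the 3 groups overlapped. Its log2 fold change for kainate against saline was 0.74 ± 0.23 SE with a limma adjusted p of 0.0917, and against nicotine it was 0.22 ± 0.23 SE with an adjusted p of 0.841. The dimmer gave 234.6, 647.9, 468.6, 300.9 and 475.3 with kainate, 82.6 to 327.8 with nicotine (median 137.05) and 42.3 to 282.6 with saline (median 155.85). Its log2 fold changes were 1.45 ± 0.42 SE against saline (adjusted p = 0.0737) and 1.33 ± 0.42 SE against nicotine (0.138). Neither probe set was called. The brighter was called when all 34 arrays shared 1 fit (0.0333) or without saline replicate 4 (0.0349), and the dimmer with array weights (0.0495) or without saline replicate 5 (0.0482). The name of the brighter carries the suffix that Affymetrix gave to probe sets that may also hybridise with related genes.

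**Figure D1:**
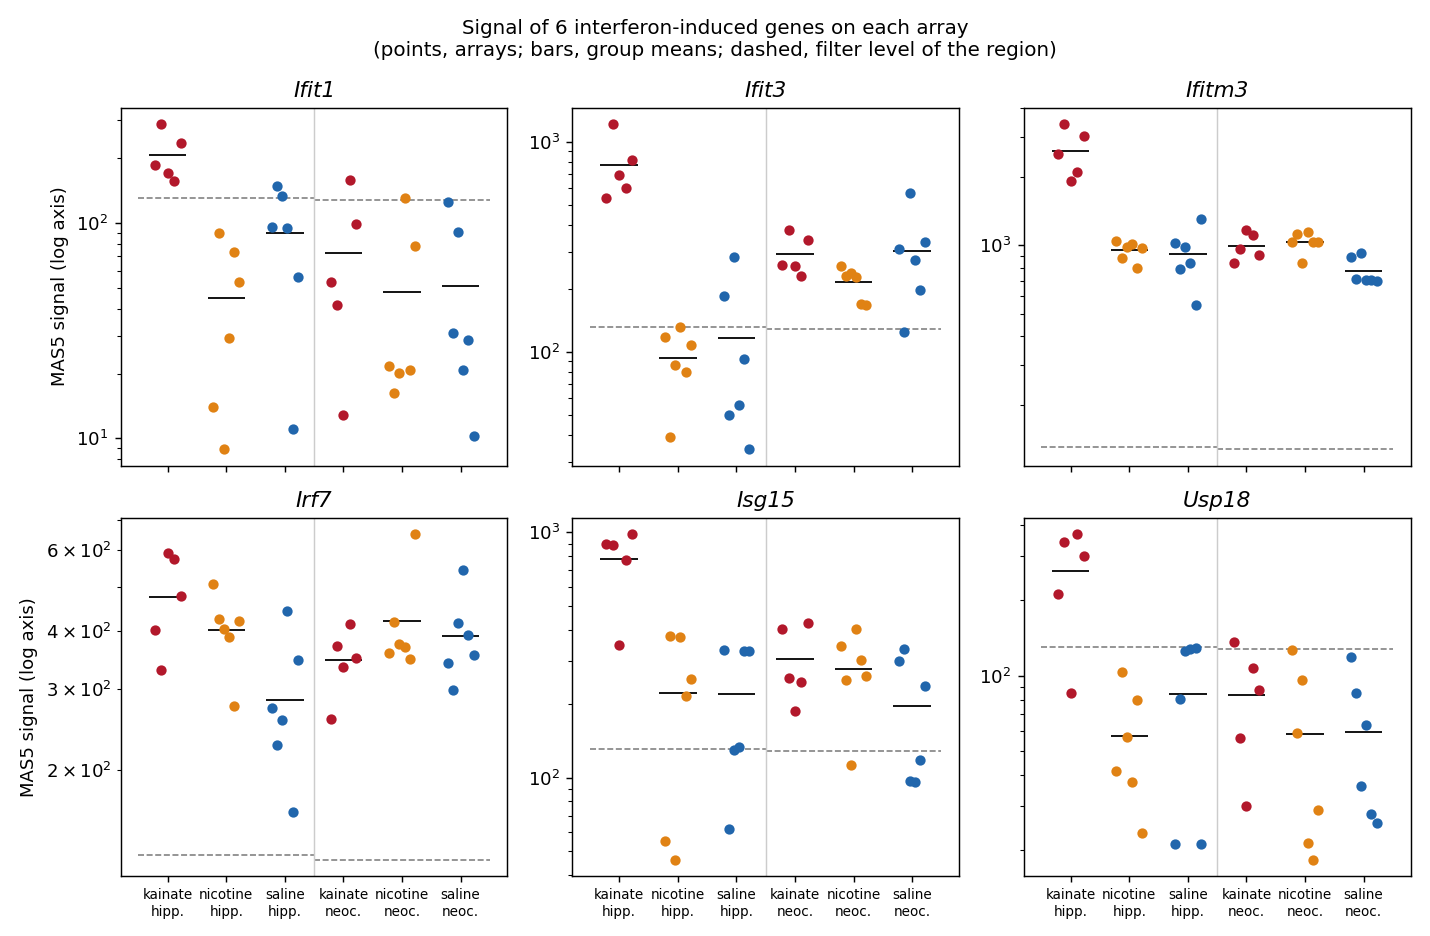
MAS5 signal (log axis) of each of the 6 genes on all 34 arrays, in 6 groups, kainate, nicotine and saline of the hippocampus and then of the neocortex. Points are arrays, bars are group means and dashed lines are the filter level. Ifit3, Ifitm3 and Ifit1 have all 5 kainate hippocampi above the other hippocampi, while the neocortex groups overlap.

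Nicotine-treated mice served as a second comparison for kainate in the hippocampus, sharing the kainate arrays with the one above. The same 3 members were called, all higher, where 2.42% of all probe sets tested were called and 2.04% were called higher. This count too partly reflects the filter, which Ifit3 passed only through its kainate arrays. Ifit3 and Ifitm3 had every kainate array above every nicotine array, as had 2.27% of all probe sets tested. The log2 fold changes were 2.85 ± 0.41 SE for Ifit3 (limma adjusted p = 0.000135), 1.41 ± 0.18 SE for Ifitm3 (3.52e-05) and 2.00 ± 0.50 SE for Isg15 (0.0318). In the fit without a filter 5 of the 6 members were called, where 1.75% of all probe sets were called and 1.51% called higher. Ifit1 joined Ifit3 and Ifitm3 in having every kainate array above every nicotine array, as had 1.85% of all probe sets. There Ifit1 was 2.04 ± 0.45 SE higher (adjusted p = 0.0153) and Usp18 1.88 ± 0.45 SE higher (0.0303). Of these, Isg15 lost its call with quantile normalization (0.0530) and without kainate replicate 1, 2, 4 or 5 or nicotine replicate 1 or 3 (up to 0.0982), at log2 fold changes of 1.69 to 2.27 over all left-out arrays. Ifit1 lost it without kainate replicate 2 (1.92, 0.0570), and Usp18 with a pseudocount of 1 (2.17, 0.0536) or without kainate replicate 1, 2, 4 or 5 or nicotine replicate 1, 3, 4 or 6 (up to 0.102, at 1.72 to 2.21 over all left-out arrays).

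The labels name no batch, but the arrays of each region were divided by their spike-in controls into 3 clusters, a number that was set and not found. Each cluster held all 3 treatments. With that cluster as a block the log2 fold changes against saline were 2.79 for Ifit3, 1.50 for Ifitm3 and 1.99 for Isg15, all still called by limma (adjusted p = 0.000378, 3.60e-05 and 0.0238). Within the largest hippocampal cluster, which held replicates 2, 3 and 4 of each group, they were 2.86 for Ifit3, 1.45 for Ifitm3 and 2.42 for Isg15. Ifitm3 alone was called there (adjusted p = 0.00528), with 0.0676 for Ifit3 and 0.169 for Isg15 at 3 arrays a group. In that cluster the values of Irf7, Ifit1 and Usp18 were 0.68, 0.62 and 0.94, none called. Against nicotine within the same cluster Isg15 was at 1.58 (adjusted p = 0.582), Ifit1 at 2.12 (0.231) and Usp18 at 1.63 (0.480), so these 3 calls were lost there.

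In the neocortex, kainate gave no call among the members. None of the 4 tested was called by limma, where 1 of 8695 probe sets (0.0115%) was, and 484 had an unadjusted p under 0.05. That 1 probe set was Gfap, the intermediate filament of astrocytes. Ifitm3 had 834.5, 964.0, 1164.1, 1109.6 and 908.8 in the kainate neocortices and ran from 700.0 to 924.8 with saline (median 710.05). Its log2 fold change was 0.36 ± 0.12 SE with an adjusted p of 0.811, and 3 of 5 kainate arrays lay above all saline arrays. Isg15 had 402.4, 254.9, 186.0, 245.2 and 427.7 with kainate and 96.2 to 333.7 with saline (median 176.8), a log2 fold change of 0.68 ± 0.35 SE (adjusted p = 0.903). For Ifit3 the change was 0.07 ± 0.28 SE, with a 95% interval from -0.50 to 0.65, which leaves out a change as large as that in the hippocampus. Irf7 was at -0.16 ± 0.19 SE, and Ifit1 and Usp18, both dim in all neocortex groups, were each at 0.42. Against nicotine in the neocortex, kainate also gave 0 calls among the members, where 0.0345% of all probe sets were called and 347 had an unadjusted p under 0.05.

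Whether the kainate effect differed between the regions was tested directly over all 34 arrays. Which arrays came from the same mouse is not in the labels, and the arrays were treated as independent. The effect was larger in the hippocampus by 2.74 ± 0.50 SE for Ifit3 (limma adjusted p = 0.00120) and by 1.15 ± 0.22 SE for Ifitm3 (0.00211), on the log2 scale. Of all probe sets tested, 0.794% were called in this test, 0.725% with a larger effect in the hippocampus. The difference was not called for Irf7 (0.90 ± 0.29 SE, adjusted p = 0.213) or Isg15 (1.20 ± 0.64 SE, 0.612). It was not called for Ifit1 (0.84 ± 0.71 SE, 0.822) or Usp18 (1.14 ± 0.64 SE, 0.693) in the fit without a filter either. Thus for these 4 genes the data do not show that the regions differed.

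Nicotine against saline gave no call for any member in either region. In the hippocampus 0 of 8695 probe sets were called by limma (0.0%), and 504 had an unadjusted p under 0.05. The brighter Irf7 probe set was at 0.53 ± 0.22 SE with an adjusted p of 0.851. Its interval ran from 0.07 to 0.98. The intervals of the log2 fold change were -0.84 to 0.77 for Ifit3, -0.26 to 0.45 for Ifitm3 and -1.11 to 0.87 for Isg15. Ifit1 was at -0.79 with an interval from -1.68 to 0.10 and Usp18 at -0.32, both unfiltered.

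In the neocortex 0 of 8695 probe sets were called between nicotine and saline (0.0%), and 835 had an unadjusted p under 0.05. Ifitm3 ran from 837.3 to 1145.7 with nicotine (median 1032.2) and from 700.0 to 924.8 with saline (median 710.05). In 5 of 6 nicotine arrays it lay above all saline arrays, and its log2 fold change was 0.42 ± 0.11 SE, with a limma adjusted p of 0.337 and a 95% interval from 0.18 to 0.65. Isg15 was at 0.54 ± 0.34 SE (adjusted p = 0.605), Ifit3 at -0.35 ± 0.26 SE (0.678) and Irf7 at 0.09 ± 0.18 SE (0.893). The difference of the nicotine effect between the regions was called for 0 of 8695 probe sets (0.0%), with 328 at an unadjusted p under 0.05.

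**Figure D2:**
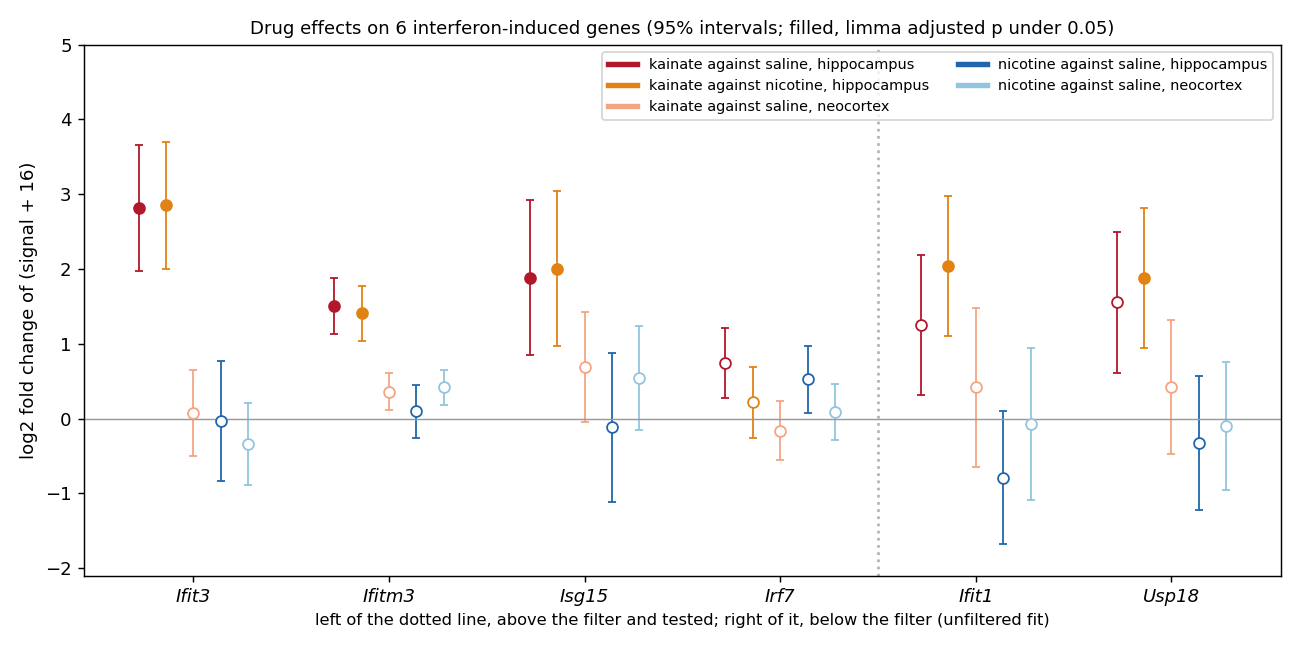
Log2 fold change of (signal + 16) with 95% intervals for each of the 6 genes in 5 drug comparisons, with Ifit1 and Usp18, which lay below the filter, on the right. Filled points have a limma adjusted p under 0.05, Ifit3, Ifitm3 and Isg15 for kainate against saline and against nicotine in the hippocampus, and Ifit1 and Usp18, in the fit without a filter, for kainate against nicotine.

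Without any drug the regions differed in Ifit3. It ran from 34.4 to 282.8 in the saline hippocampi (median 73.85) and from 124.8 to 570.6 in the saline neocortices (median 290.9). In 4 of the 6 hippocampi it lay below every neocortex, and the log2 difference was -1.43 ± 0.34 SE with a limma adjusted p of 0.00313. It was the only called member among the 4 tested, where 10.5% of all probe sets were called and 5.19% were lower in the hippocampus. With the 12 saline arrays alone the same difference had an adjusted p of 0.0573. The brighter Irf7 probe set was at -0.48 ± 0.20 SE (0.129), with an adjusted p of 0.0379 without saline hippocampus replicate 4. Ifitm3 was at 0.20 ± 0.15 SE (0.491) and Isg15 at 0.09 ± 0.43 SE (0.935).

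The order of the 6 groups was not alike among the members. For Ifit3 the mean signal was 773 in the kainate hippocampus, then 302 in the saline, 293 in the kainate and 214 in the nicotine neocortex, and lowest in the saline (116) and nicotine (93.9) hippocampus. The lowest kainate hippocampus (539.2) lay below the highest saline neocortex (570.6) and above all other arrays of the other 5 groups. The 3 neocortex groups overlapped, and so did the 2 lowest. For Ifitm3 the order was 2593 in the kainate hippocampus, 1034 in the nicotine and 996 in the kainate neocortex, 950 in the nicotine and 913 in the saline hippocampus, and 773 in the saline neocortex. After the first, each group overlapped with its neighbour. Isg15 had 777 in the kainate hippocampus and between 197 and 303 in the other 5 groups, which overlapped with each other. Ifit1 had 208 in the kainate hippocampus and 44.8 to 89.9 elsewhere, and Usp18 had 261 there and 57.1 to 84.0 elsewhere. The brighter Irf7 probe set stood out least, with 475 in the kainate hippocampus, 421 in the nicotine neocortex and 404 in the nicotine hippocampus. Its lowest mean was 284, in the saline hippocampus.

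The 5 kainate hippocampi differed in level. For each of the 6 members they spread less than the saline hippocampi on the log2 scale, but more in signal. The SD of the signal was 268 with kainate and 97.5 with saline for Ifit3, and 54.2 and 50.4 for Ifit1. The SD of log2(signal + 16) was 0.335 with kainate and 0.956 with saline for Ifit1, and 0.346 and 0.416 for Ifitm3. It was 0.789 and 0.956 for Usp18. Compared with nicotine, the kainate SD of log2(signal + 16) was smaller for Ifit1, Ifit3 and Isg15 and larger for Ifitm3, the brighter Irf7 probe set and Usp18. Averaged over the 6 members, log2(signal + 16) exceeded the mean of the saline hippocampi by 1.52 in replicate 1, 1.94 in replicate 2, 1.17 in replicate 3, 1.64 in replicate 4 and 1.86 in replicate 5. Replicates 2 and 5 each held 4 members among their 2 highest values of the 5. Replicate 3 held the lowest value of 3 members, Isg15, Usp18 and Ifitm3, and it also had the highest value of the brighter Irf7 probe set. Summed signals of 19 microglia and macrophage markers were 80901, 84234, 51471, 60774 and 83871 in replicates 1 to 5, so replicate 3 was lowest there too. This was not particular to microglia. Replicate 3 was also lowest for astrocyte (68959), endothelial (9595) and oligodendrocyte markers (48489), though not for the other marker lists. Replicate 1, next lowest in the mean of the members, had a microglia sum of 80901, above that of replicate 4. With 5 mice this is a description of single animals, and whether they differed in their response to kainate was not tested.

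**Figure D3:**
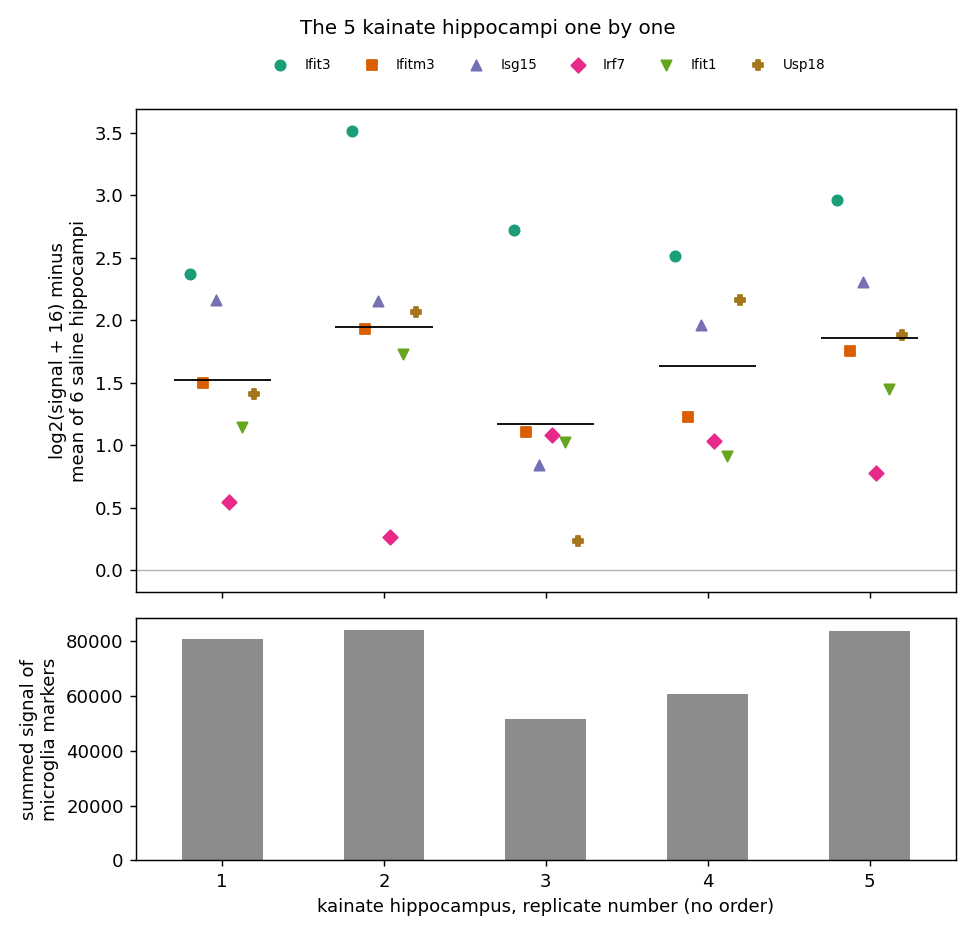
Upper panel, log2(signal + 16) of each member in the 5 kainate hippocampi minus its mean in the 6 saline hippocampi, with a bar at the mean of the 6 members. Lower panel, summed signal of 19 microglia and macrophage markers in the same arrays. Replicate 3 has the lowest mean of the members (1.17) and the lowest marker sum (51471). Its sums of astrocyte, endothelial and oligodendrocyte markers, not shown, are also the lowest of the 5.

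Markers of microglia and macrophages moved with the members. Of 24 listed, 19 were measured, and their summed signal ran from 51471 to 84234 in the kainate hippocampus, 18080 to 21564 in the nicotine and 18650 to 21482 in the saline hippocampus. In the neocortex the sums ran from 21015 to 26012 with kainate, 18263 to 20583 with nicotine and 18525 to 21352 with saline. In the hippocampus 14 of 15 tested markers were called higher with kainate, where 1.84% of all probe sets tested were. The filter averages over all hippocampal arrays, so a marker dim elsewhere could pass it through the kainate arrays alone. This count therefore partly reflects the filter. Lyz2, for example, had means of 692 with kainate, 72.0 with nicotine and 93.0 with saline. Fcgr3 (197 against 202) and Fcer1g (67.2 against 68.9) had no higher mean with kainate than with saline, unlike the other measured markers. Astrocyte markers, 9 of 13 measured, summed to between 68959 and 80742 with kainate, 44301 and 50766 with nicotine and 41582 and 47778 with saline in the hippocampus. Of the 9, 4 were called higher. Endothelial and vascular markers summed to between 9595 and 12828 with kainate and 9148 and 10446 with saline, with 1 of 13 called higher. T cell, B cell and natural killer cell markers, 14 of 17 measured, summed to between 2381 and 3308 with kainate and 2414 and 3272 with saline, with 1 of 4 tested called higher. These markers did not move together, since Ighm had a mean of 1195 with kainate and 738 with saline, and Cd4 had 353 and 670. No marker was at 0 on any array, and the part of these cell types in the results was not tested. Markers that define the hippocampus, 8 of 9 measured, set the regions apart, with sums from 12494 to 19794 in hippocampal and 4419 to 6857 in neocortical arrays. Within the hippocampus these sums were 12494 to 14523 with kainate, below the 15325 to 18123 with nicotine and the 16650 to 19794 with saline. Not every marker fell. Prox1 had a mean of 398 with kainate and 273 with saline, and Zbtb20 had 2665 and 2609, while the other measured ones were lower with kainate than with saline.

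The wider pathway was described with 4 lists of 129 genes, members left out, of which 91 were measured and 54 passed the filter in the hippocampus. The lists too were chosen with earlier results of these data known, so their counts are descriptions. With kainate against saline there, 9 were called higher and 0 lower, where 1.84% of all probe sets tested were called higher, and the median log2 fold change of the 54 was 0.39, against 0.01 over all probe sets tested. The filter averages over the kainate arrays too, so counts and medians of tested hippocampal genes here and below may partly reflect it. In the fit without a filter 14 of the 91 were called higher and 0 lower, where 1.31% of all probe sets were called higher. In the neocortex 0 of 51 tested were called with kainate, with a median of 0.07, against 0.00453 over all probe sets.

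Ligands and receptors of interferons showed no call. Of 16 listed, 14 were measured, 10 were tested and 0 were called, with a median log2 fold change of 0.07 for kainate in the hippocampus. Without saline replicate 6, 1 of the 10 was called. Ifnb1, the beta interferon, had a mean signal of 166 ± 83.4 with kainate and 148 ± 70.2 with saline (SD, n = 5 and 6), and a log2 fold change of 0.15 with a limma adjusted p of 0.939. Ifng, the gamma interferon, lay far under the filter level with 8.02 and 19.4. Ifnar1, a chain of the type I receptor, was at 332 ± 195 with kainate and 487 ± 92.2 with saline, a log2 fold change of -0.77 (adjusted p = 0.273).

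Among 11 tested kinases, STATs, IRFs and negative regulators, of 15 measured, 1 was called higher and 0 lower, with a median of 0.36. Without nicotine replicate 6 the count was 2, and with a filter at the 50th percentile it was 0. The 1 called was Irf8, a transcription factor of microglia and other myeloid cells, with 834 ± 79.0 in the kainate and 282 ± 58.9 in the saline hippocampi (SD, n = 5 and 6). Its log2 fold change was 1.53 ± 0.19 SE with a limma adjusted p of 2.57e-05. Irf9 was at 0.36 (0.410), Irf1 at 0.39 (0.556) and Stat3 at 0.21 (0.468), none called. Sensors of nucleic acids had 6 measured and 4 tested genes with 0 calls. Ifih1, a sensor of double-stranded RNA, had a log2 fold change of 1.03 with an adjusted p of 0.151.

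Other interferon-induced genes held most of the calls. Of 77 listed, 56 were measured, 29 were tested, and 8 were called higher and 0 lower with kainate in the hippocampus, with a median log2 fold change of 0.58. The count was 5 without kainate replicate 5 and 2 within the largest spike-in cluster. Lgals3bp, a secreted glycoprotein that binds galectins, had 2358 ± 491 with kainate and 497 ± 86.4 with saline (SD, n = 5 and 6), a log2 fold change of 2.20 ± 0.18 SE (limma adjusted p = 4.42e-08). Genes of antigen presentation by class I molecules were among them. These were B2m, the light chain of class I (1.79, adjusted p = 0.000123), Psmb8, a subunit of the immunoproteasome (1.38, 0.00249), and Tap1, a peptide transporter (0.91, 0.0142). The others were Gbp3, a guanylate-binding protein (1.18, 0.0227), Lgals9, a galectin (0.90, 0.000429), and Ifi27 (0.58, 0.000923). Uba7, the enzyme that activates Isg15 for its transfer to other proteins, was 0.80 ± 0.19 SE higher (0.0189), with 679 ± 101 with kainate against 393 ± 114 with saline.

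Genes under the filter level added to these in the fit without a filter. Gbp2, another guanylate-binding protein, had 426 ± 42.8 with kainate and 106 ± 94.2 with saline, a log2 fold change of 2.26 (limma adjusted p = 0.0106). The chemokine Ccl5 had 181 ± 122 and 31.2 ± 8.69, with 1.87 (0.00351). Ifi35 was at 1.71 (0.0125), Ccl12 at 1.54 (0.0436) and Psmb9 at 1.34 (0.00652). Of the close relatives of the members, Ifit2 had a log2 fold change of 1.30 with an adjusted p of 0.253 without a filter, against 1.25 (0.211) for Ifit1. Ifitm1 and Ifitm2 were at 0.29 (0.767) and -0.27 (0.809), against 1.51 for Ifitm3.

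Against nicotine, 12 of the 54 tested genes of the 4 lists were called higher with kainate and 0 lower, where 2.04% of all probe sets tested were called higher, with a median of 0.36. They included Trim25, a ubiquitin ligase (0.97, limma adjusted p = 0.0210), Irgm2, an immunity-related GTPase (0.84, 0.0179), and Irf5 (0.74, 0.0142). The test of the difference between regions called Lgals3bp (1.92, adjusted p = 1.44e-06) and Lgals9 (1.01, 0.0159), both with the larger kainate effect in the hippocampus. Between the saline regions, Ifngr2 (0.66) and Ifi27 (0.53) were higher and Adar (-0.72) and Psmb10 (-0.42) lower in the hippocampus. Of all probe sets tested, 10.5% were called there, so these genes are not read as a regional difference of the pathway.

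**Figure D4:**
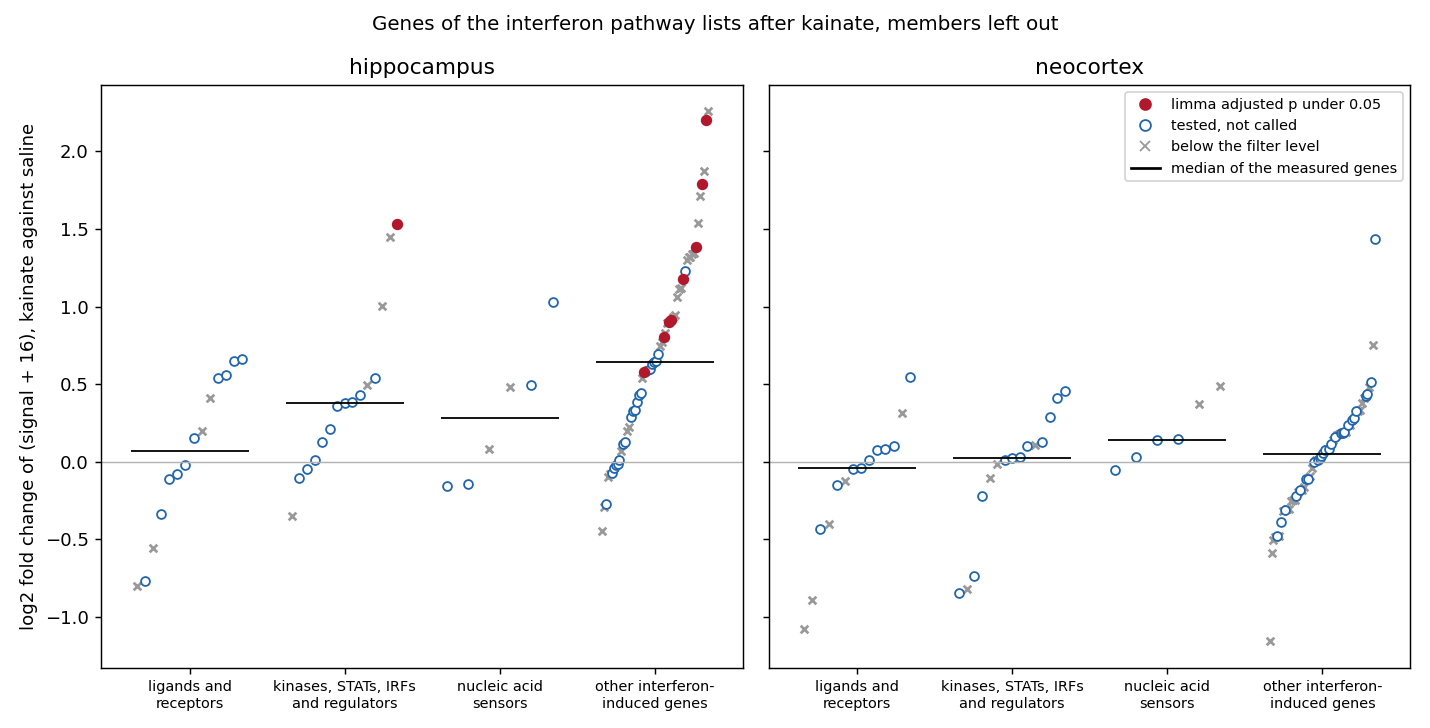
Log2 fold change of (signal + 16) for kainate against saline of the 91 measured genes of 4 interferon pathway lists, in the hippocampus on the left and the neocortex on the right. Filled points have a limma adjusted p under 0.05, 9 in the hippocampus and 0 in the neocortex, crosses lie below the filter level and bars are medians.

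Genes whose pattern was most like that of the members were sought among 6426 genes by Pearson's correlation with the mean standardised profile of the 6 members over the 34 arrays. The 8 most alike were Laptm5 (0.905), Lgals3bp (0.904), Ctss (0.902), C1qa (0.893), C1qb (0.883), H2-D1 (0.880), Mpeg1 (0.872) and H2-K1 (0.870). Laptm5, Ctss, C1qa, C1qb and Mpeg1 are on the microglia and macrophage list, and H2-D1 and H2-K1 encode heavy chains of class I. The arrays share the group differences, so these correlations describe mainly the kainate hippocampus against the rest. After the group means were subtracted, the highest correlation was 0.658, for Ccn1, followed by Map2k4 (0.643), Rps3 (0.604), Elk1 (0.561) and Myadm (0.559), and none of the 8 was among them. The members themselves behaved the same way. Their 15 pairs correlated from -0.02 to 0.62 over the 34 arrays, with a median of 0.45, and from -0.32 to 0.30 with a median of 0.07 after the group means were subtracted.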

How the data were processed

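RNA of the hippocampus and neocortex was hybridised to Affymetrix arrays from 12 µg of total RNA, per the labels' protocols. The authors deposited linear signal intensities made with MAS5, per the submitters' processing notes, with no version given. Each array's 2% trimmed mean lay between 1000.5 and 1000.6, so they had been scaled to about 1000, and medians ran from 375.8 to 438.6. In the hippocampus every kainate and nicotine array had a higher median (394.2 to 438.6) than every saline array (380.6 to 390.9). Detection calls were not used here. The 66 control probe sets were left out.

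From these values log2(signal + 16) was fitted with limma 3.58.1 in R 4.3.3 (lmFit, eBayes with an intensity trend), over the 17 arrays of a region or all 34, for probe sets at or above the 30th percentile, and adjusted by Benjamini-Hochberg. A gene with several probe sets was read from its brightest. Arrays of a group are labelled as biological replicates, and their number limits the precision. The fits were tested on simulated data. The 3 array clusters of a region, a number that was set, came from 9 spike-in probe sets. Permutation tests used scipy 1.17.1 and figures matplotlib 3.10.9. Sequences and positions are RefSeq's on GRCm38.p6, and Entrez identifiers matched 10817 of 10833 probe sets with 1 symbol.

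The 6 members, the gene lists and the markers were chosen with earlier results of these data known. Named genes were the members, up to 10 called genes of each list with the largest change, a few uncalled ligands, receptors and relatives chosen after their values were seen, and the 8 and 5 genes most alike.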

Additional observations from a re-analysis of the deposited data

Results flagged for a closer look

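In 4 of the 42 combinations of probe set and group, 1 array stood apart from the rest of its group by Dixon's criterion, which chance gives in about 1 in 20 groups. Isg15 in kainate hippocampus replicate 3 had a signal of 347.1, below the other 4 kainate hippocampi. Ifitm3 in nicotine neocortex replicate 3 had 837.3, below the other 5 of its group. The brighter Irf7 probe set in nicotine neocortex replicate 6 had 650.8, and the dimmer one in nicotine neocortex replicate 1 had 247.1, each above the other 5 of its group.

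The kainate effect differed between the hippocampus and the neocortex by a direct test of the difference for Ifit3 (2.74 on the log2 scale, limma adjusted p = 0.00120) and Ifitm3 (1.15, 0.00211). Leaving out any 1 of the 34 arrays kept both calls, with differences from 2.52 to 3.04 for Ifit3 and from 1.01 to 1.26 for Ifitm3.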

How the results depend on the processing

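Ifit3 and Ifitm3 kept their kainate calls in the hippocampus with every pseudocount, scaling, weighting and block tried and with any 1 array left out, except that Ifit3 against saline was not called within 1 spike-in cluster. The number of members called for kainate against saline (3) was 1 with a filter at the 50th percentile, which keeps only 1 member, and 1 within the largest cluster, an alternative chosen after the data were seen. It was 2 to 3 with 1 array left out. For kainate against nicotine (3) it was 5 without a filter, 1 with the stricter one and 2 to 3 with 1 array left out. The difference between regions (2) gave 1 with the stricter filter. The saline regions (1) gave 0 with the stricter filter, 0 with only the saline arrays and 1 to 2 with 1 array left out. For the 4 pathway lists (9) it was 14 without a filter, 5 with the stricter one, 3 within the cluster and 6 to 11 with 1 array left out. Same-numbered samples of different groups correlated from -0.115 to 0.197 in their deviations from the group means, not all above 0.1, although each hippocampal spike-in cluster held the same numbers in every group apart from a kainate replicate 6, which does not exist. Replicate numbers as a block left 3 members called, and 323 probe sets in all against 243. That block changed no call among the members. Median centring moved the median of all genes from 0.01 to -0.10 and the calls from 160 higher and 83 lower to 130 and 313, with 3 members called. The largest cluster alone gave 54 calls. The spike-in cluster could not be a block between the saline regions, since clusters lie within regions.

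Of 2059 member values under alternatives, 1958 kept direction and side of the threshold, 34 lost and 7 gained a call, and 60 changed sign. Each of the 60 belonged to a difference that was not called, and the cause was not tested. For nicotine in the hippocampus the dimmer Irf7 probe set was at -0.0194 with array weights and -0.26 within the cluster, and Isg15 at 0.0528 and 0.84. For kainate against saline in the neocortex the dimmer Irf7 probe set was at 0.00439 with a pseudocount of 1, 0.11 with the replicate block, 0.36 with array weights and 0.34 within the cluster, where Ifit1 was at -0.87 and Usp18 at -0.16. Within that cluster nicotine against saline gave -0.00471 for Isg15 and 0.25 for Usp18, and kainate against nicotine -0.41 for Usp18. Between the saline regions the dimmer Irf7 probe set was at 0.14 with array weights.

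With 1 array left out, nicotine values in the hippocampus ran from -0.25 to 0.26 for Ifit3, -0.0357 to 0.21 for Ifitm3, -0.15 to 0.32 for the dimmer Irf7 probe set and -0.39 to 0.20 for Isg15. In the neocortex they ran from -0.37 to 0.19 for Ifit1, -0.0398 to 0.19 for the brighter Irf7 probe set and -0.33 to 0.10 for Usp18. Kainate against saline there ran from -0.13 to 0.28 for Ifit3 and -0.20 to 0.30 for the dimmer Irf7 probe set. Kainate against nicotine ran from -0.11 to 0.00392 for Ifitm3 and -0.0806 to 0.29 for Isg15. The nicotine effect between regions ran from -0.47 to 0.00325 for Usp18. The saline regions ran from -0.24 to 0.26 for the dimmer Irf7 probe set and -0.0627 to 0.37 for Isg15. Signals under the filter level limit Ifit1, Usp18 and hippocampal Ifit3.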
